A study of Mus musculus with 2 samples.

Results

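The cytosolic ribosomal proteins are the protein building blocks of the ribosome outside mitochondria, and their transcripts were compared between a melanoma line grown from a dormant disseminated cell and the line it came from. A gene was taken when the array's gene name was Rpl or Rps followed by a digit, without the Rps6k kinases, or was Rplp0, Rplp1, Rplp2 or Rpsa. This rule found 142 probes for 85 of the 27790 genes on the array, 34 named for the small subunit and 51 for the large subunit. Of these, 77 are standard ribosomal proteins and 8 carry other names, 7 of them paralogs or copies and 1, Rps19bp1, a protein that binds a ribosomal protein. Each gene was read from its brightest probe, and the values themselves played no part in the choice.

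Both lines are B16F1 mouse melanoma cells of C57BL6 origin that carry a GFP plasmid. B16F1-GFP-M is the clonal maternal line. B16F1-GFP-D is a dormant DMC-derived line (DMC, disseminated melanoma cell), grown from 1 colony of sorted GFP-positive cells that came from the pooled organs of control and immunised tumour-free mice 1 year after challenge, so that it stands for a single clone. Both were cultured in DMEM with 10% serum and 1% antibiotics, and no agent was added to either. Their RNA was hybridised together on 2 Agilent 2-colour arrays of 1 slide, with Cy5 on the maternal RNA and Cy3 on the dormant DMC-derived RNA of array 1, and the dyes exchanged on array 2. The labels do not say whether the arrays drew on separate cultures or RNA extracts, so both together were taken as 1 replicate of each line, which allows no test. An SD below is the spread between the 2 arrays, which holds dye effects and may or may not hold variation between cultures. Because the RNA came from whole cultures, fewer cells of a kind and less RNA per cell cannot be told apart.

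A ribosome holds 1 copy of nearly every ribosomal protein, and cells make these proteins in matched amounts. Most of their messenger RNAs begin with a C followed by a run of pyrimidines, the 5′ terminal oligopyrimidine or TOP motif, through which mTOR signalling and the binding protein Larp1 adjust their translation together. Growing tumour cells devote much of their transcription to ribosomes, and ribosomal proteins left outside the ribosome, Rpl5 and Rpl11 above all, bind Mdm2 and so bear on p53.

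All ratios are log2 of B16F1-GFP-D relative to B16F1-GFP-M after background correction and loess normalisation within each array, so that a negative value means less transcript in B16F1-GFP-D relative to the other transcripts of similar brightness. A gene was called detected when both arrays flagged its spot well above background for the same line, whichever line that was, as held for 12540 genes. Among the ribosomal protein genes, 82 were detected, each in both lines on both arrays, and none had a saturated spot. The 3 others were the paralogs Rpl3l and Rpl39l, known from muscle and testis, and Rps4y2. All 9 melanocyte markers examined were detected, whereas 2 of 6 fibroblast markers, 3 of 6 leukocyte markers and none of 4 endothelial or 4 epithelial markers were. The share of spots well above background ran from 44.1% to 60.7% over the 4 channels, and with 2 arrays the precision is limited throughout.

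The transcripts of the ribosomal proteins differed little in level between the lines, and the family leaned slightly towards lower values in B16F1-GFP-D. Their median ratio was -0.14, with a median of -0.23 on array 1 and -0.09 on array 2, against -0.01 over all detected genes. The ratio was lower in B16F1-GFP-D on both arrays for 43 genes (52.4%) and higher on both for 10 (12.2%), while the arrays gave opposite signs for the other 29. Over all detected genes these shares were 42.7% lower and 41.0% higher. No ribosomal protein gene was 2-fold lower or higher on both arrays, where 1.95% of all detected genes were lower and 3.09% higher. At 1.5-fold on both arrays, 2 genes were lower, Rpl22l1 and Rps27, and none was higher, against 7.02% and 8.76% of all detected genes. The direction of the family median depended on the normalisation: with each array centred on its median in place of loess, it was 0.25, against 0.07 over all detected genes.

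**Figure D1:**
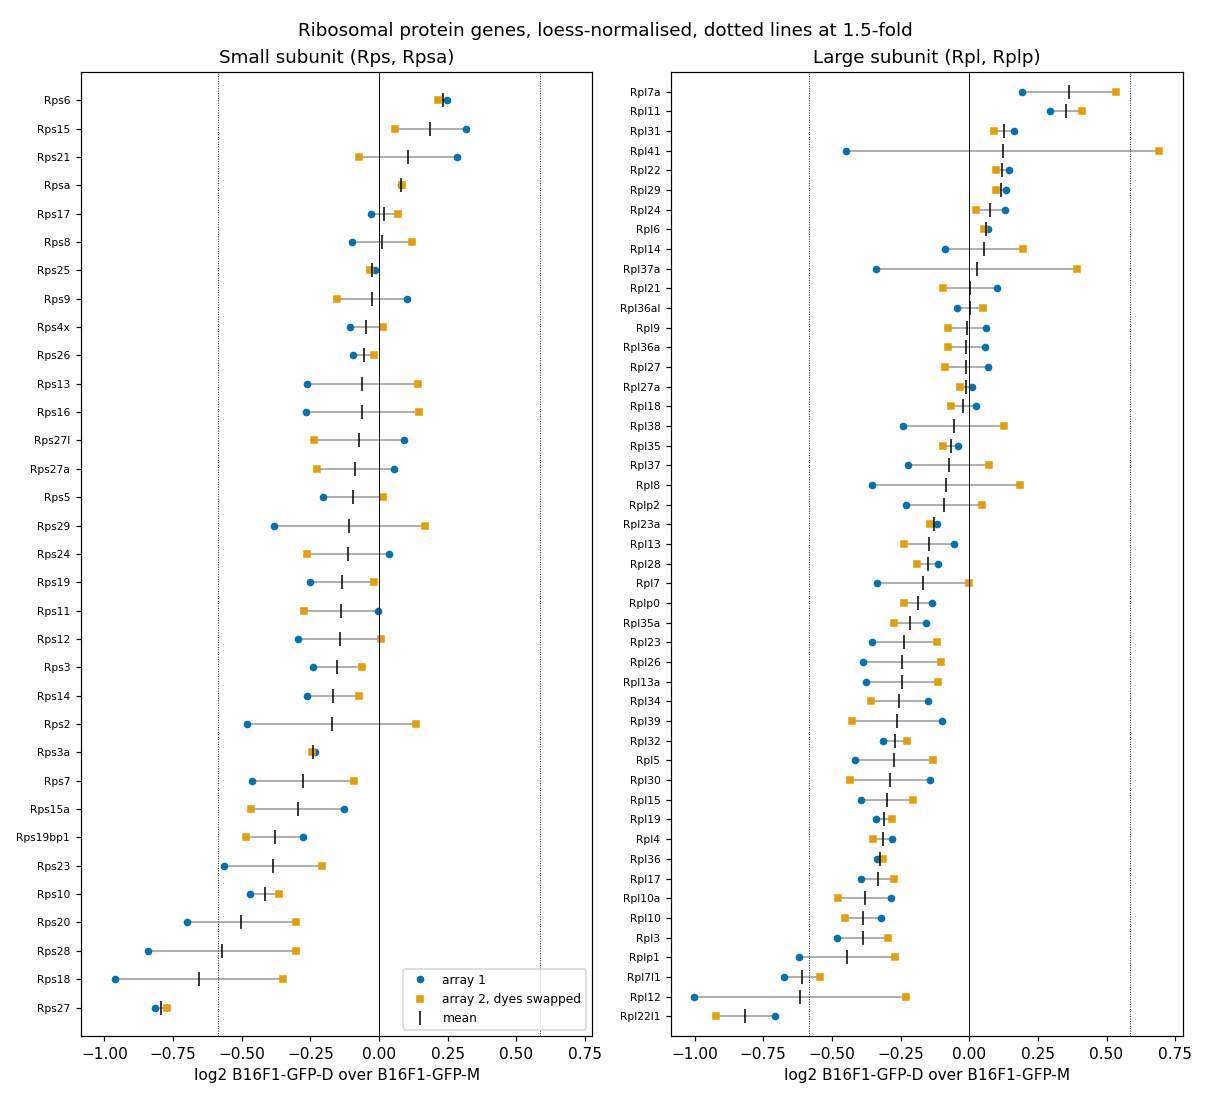
Log2 ratio of B16F1-GFP-D relative to B16F1-GFP-M for 81 of the 82 detected ribosomal protein genes after loess, small subunit on the left and large subunit on the right, with a circle for array 1, a square for array 2, a grey line joining them and a tick at their mean. Most genes lie within 0.3 of 0, Rps27 and Rpl22l1 lie beyond the dotted line of 1.5-fold on both arrays, and Rpl41 lies on opposite sides of 0 on the 2 arrays; with median centring the medians of both subunits were above 0.

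The methods differed most for bright spots. Ribosomal protein transcripts are among the most abundant in a cell, and 74 of the 82 genes were brighter than 95% of the detected genes. Before normalisation, Cy5 exceeded Cy3 by a median of 1.95 on the log2 scale at these genes on array 1 and by 2.36 on array 2, compared with 1.5 and 1.63 over all detected genes. Median centring removes 1 constant per array and leaves this extra dye difference in the ratios of each, with family medians of -1.31 on array 1 and 1.75 on array 2. In the mean of both arrays a dye difference shared by them cancels, and whether a dye effect or a difference between the lines lies behind the centred family median of 0.25 was not tested. Loess removes a trend with brightness from each array. Fitted without the ribosomal protein probes, loess gave a family median of -0.18. The scanner software's own normalised ratio gave -0.13.

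Other bright genes offer a second reference. At a mean log2 intensity of 14 or more there were 72 ribosomal protein genes and 330 other detected genes, with median ratios of -0.14 and 0.05. With median centring these medians were 0.27 and 0.40, so the ribosomal protein genes had the lower median by both methods. The groups were not matched, since their median log2 intensities were 15.76 and 14.79. The 10 ribosomal protein genes below that brightness had a median of -0.004.

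**Figure D2:**
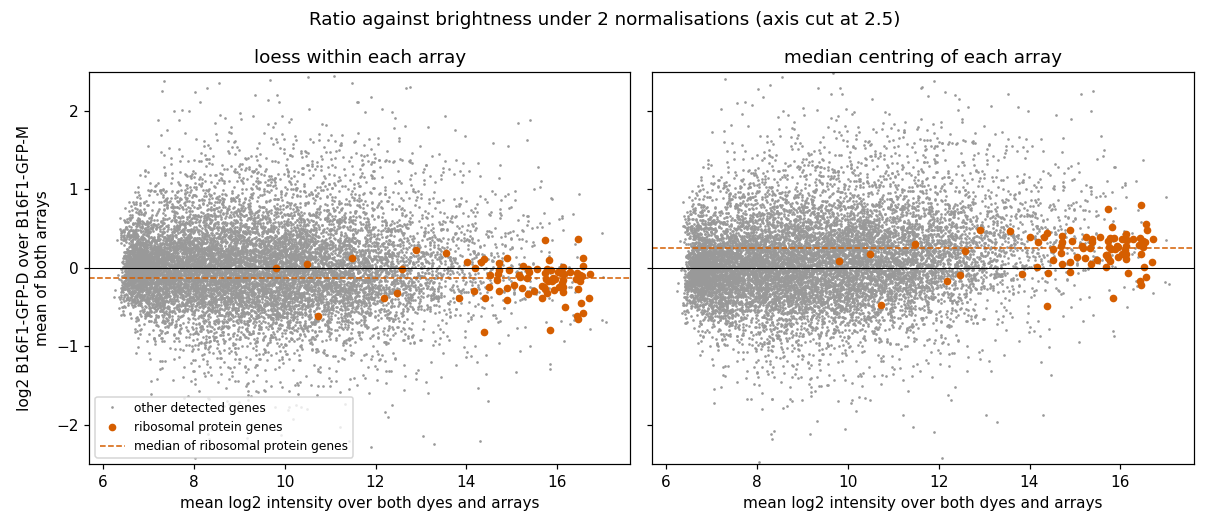
Mean log2 ratio of B16F1-GFP-D relative to B16F1-GFP-M against mean log2 intensity for 82 ribosomal protein genes (orange) and the other detected genes (grey), after loess on the left and after median centring on the right, with the family median as a dashed line. The family sits at the bright end, at a median of -0.14 after loess and of 0.25 after median centring, where the cloud of other bright genes also lies above 0.

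The order of the genes within the family depended less on the method than the family's level did. The 8 lowest genes after loess held 6 of the 8 lowest places with median centring and 7 with the scanner software's ratio, and the 8 highest held 6 and 7 of the highest places. In all, 12 genes were lower and 9 were higher in B16F1-GFP-D on each array after loess and in the mean over the arrays under all of the other normalisations and under the median of a gene's probes. The same rule was met by 37.5% of all detected genes for lower values and 39.5% for higher ones. The lower ones were Rpl3, Rpl4, Rpl7l1, Rpl10a, Rpl12, Rpl22l1, Rps10, Rps18, Rps19bp1, Rps20, Rps27 and Rps28, and the higher ones were Rpl6, Rpl7a, Rpl11, Rpl24, Rpl29, Rpl31, Rps6, Rps15 and Rpsa. Between the arrays, the ratios of the 82 genes had a Pearson correlation of 0.41, as a description across genes that share the arrays, and the pooled SD between arrays was 0.22. Over all detected genes the correlation was 0.93 and the pooled SD was 0.15. The quartiles of the family lay at -0.29 and -0.01, a distance close to the SD between the arrays, so most members could not be ranked.

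Rps27 and Rpl22l1 stood lowest. Rps27, a zinc-finger protein of the small subunit, had normalised log2 intensities of 15.38 in B16F1-GFP-D and 16.20 in B16F1-GFP-M on array 1, and of 15.49 and 16.26 on array 2. It was lower in B16F1-GFP-D by nearly the same amount on both arrays, with a mean ratio of -0.79 ± 0.03 (SD of 2 arrays), a 1.73-fold difference. Rpl22l1, a paralog of the RNA-binding protein Rpl22, had 14.07 in B16F1-GFP-D and 14.78 in B16F1-GFP-M on array 1, and 13.88 and 14.80 on array 2. Its mean ratio was -0.82 ± 0.15, a 1.76-fold difference. Both genes stayed below 0 with median centring, at -0.38 and -0.49.

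The next lowest were Rps18 at -0.66 ± 0.43, Rpl12 at -0.62 ± 0.54, Rpl7l1 at -0.61 ± 0.09, Rps28 at -0.57 ± 0.38, Rps20 at -0.50 ± 0.28 and Rplp1 at -0.45 ± 0.25. Rps18, Rps20 and Rps28 belong to the head of the small subunit, Rpl12 and Rplp1 to the stalk that recruits elongation factors, and Rpl7l1 is a paralog of Rpl7 that acts in the maturation of the large subunit. These are all genes with the same sign on both arrays, but the size differed much between arrays for the brightest of them. Rpl12, for instance, was at -1.0 on array 1 and -0.23 on array 2, and Rps18 at -0.96 and -0.35. Rpl7l1 was steadier, with intensities of 10.45 in B16F1-GFP-D and 11.13 in B16F1-GFP-M on array 1 and of 10.42 and 10.96 on array 2.

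At the upper end, Rpl7a had the highest mean ratio, 0.36 ± 0.24. Its log2 intensity was 16.68 in B16F1-GFP-D and 16.49 in B16F1-GFP-M on array 1, and 16.58 and 16.05 on array 2. Rpl11, which joins Rpl5 and the 5S RNA in a small particle of the large subunit, followed at 0.35 ± 0.08. Its intensities were 16.01 and 15.71 on array 1 and 15.80 and 15.39 on array 2, so that B16F1-GFP-D was the higher line on both. Rps6, the ribosomal protein that S6 kinases phosphorylate, was at 0.23 ± 0.02, with 0.25 on array 1 and 0.22 on array 2. Rps15 was at 0.19 ± 0.18, Rpl31 at 0.13 ± 0.05, Rpl22 at 0.12 ± 0.03 and Rpl29 at 0.12 ± 0.03. None of these reached 1.5-fold on either array.

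Some mean values hid opposite readings. The 12 genes whose arrays differed in sign by more than 0.3 included Rps2, Rps12, Rps29, Rpl8, Rps27l, Rps16, Rps13, Rpl38, Rpl37a, Rps21 and Rpl41. The widest gap was that of Rpl41, the smallest ribosomal protein, at -0.45 on array 1 and 0.69 on array 2, and the next that of Rpl37a, at -0.34 and 0.39. For 10 of the 12 the ratio was lower on array 1, the exceptions being Rps21 and Rps27l. No direction can be read for these genes.

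Small and large subunit genes had similar values. The 33 detected genes of the small subunit had a median of -0.11, with 16 lower and 3 higher on both arrays. The 49 of the large subunit had a median of -0.15, with 27 lower and 7 higher. Of all detected genes, 42.7% were lower and 41.0% higher on both arrays. Without the paralogs and Rps19bp1 the medians were -0.11 and -0.15. Within array 1 the medians were -0.23 for the small and -0.22 for the large subunit, and within array 2 they were -0.07 and -0.10. The order of the subunits thus changed between the arrays. With median centring the small subunit was at 0.28 and the large subunit at 0.19.

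Parts of the ribosome with a known role were read in the same way, beside the same shares of 42.7% lower and 41.0% higher over all detected genes. The 4 proteins of the stalk, which brings elongation factors to the ribosome, were at -0.62 for Rpl12, -0.45 for Rplp1, -0.19 ± 0.07 for Rplp0 and -0.09 ± 0.20 for Rplp2. Of these, 3 were lower on both arrays, and Rplp2 was at -0.23 on array 1 and 0.05 on array 2. Their median of -0.32 became 0.12 with median centring. In the particle with 5S RNA the 2 proteins parted by their brightest probes, with Rpl11 higher as above and Rpl5 lower, at -0.27 ± 0.20. With median centring both were above 0, at 0.75 for Rpl11 and 0.13 for Rpl5. A second probe of Rpl5 read 0.71 after loess, so its direction is not settled. Among the 8 proteins around the tunnel through which the new chain leaves, 7 were lower on both arrays and Rpl31 was higher, with a median of -0.25, and for the 6 proteins at the channel of the messenger RNA the median was -0.16. Of 18 ribosomal protein genes known from Diamond-Blackfan anaemia, in which their loss impairs red cell formation, 11 were lower and 2 higher on both arrays, at a median of -0.12. With median centring the medians of these last 3 groups were 0.15, 0.27 and 0.27. After loess, the medians of the stalk and the tunnel lay below that of the whole family. Those of the messenger RNA channel and of the anaemia genes lay close to it.

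By their brightest probes, paralogs followed their partners only in part. Rps27l, a close copy of Rps27, was at 0.09 on array 1 and -0.24 on array 2, where Rps27 was at -0.82 and -0.77, and the values of the pair did not overlap. For Rpl22l1 and Rpl22 the values were -0.71 and -0.92 against 0.14 and 0.10. Their second, less bright probes gave the reverse order, at 0.06 and 0.38 for Rpl22l1 against -1.32 and -1.23 for Rpl22. The contrast of this pair thus depended on the probe. Rpl7l1 was at -0.67 and -0.54, with Rpl7 at -0.34 and -0.001. A second probe of Rpl7l1 read -0.06 as a mean, and the further probes of Rpl7 read -0.02 and 0.11. Rpl36al stayed at 0.00 ± 0.07 and Rpl36a at -0.01 ± 0.09. Rps19bp1, which binds Rps19, was at -0.38 ± 0.15, whereas Rps19 was at -0.13 ± 0.17.

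Several probes of a gene allowed a check on the brightest one, because ribosomal protein transcripts have many near-identical processed copies in the genome and a probe can read more than 1 transcript. For 42 genes a second probe was detected, giving 52 further probes, of which 45 lay within 0.5 of the brightest on the log2 scale. All 31 further probes with a log2 intensity of 11 or more were within that limit, and the 7 farther away were all among the 21 dimmer ones. Further probes under 11 are called dim below, although the median log2 intensity of all detected genes was lower, at 9.14. In 44 of the 52 the further probe gave the higher ratio, by a median of 0.11 over all 52. Taking the median of a gene's probes accordingly brought the family median to -0.08.

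The low and high ends were partly borne out by other probes. Rps28 read -0.57 on each of 3 probes. Rps18 read -0.66, -0.59 and -0.35, the last on a dim probe. Rpl7a read 0.36, 0.48 and 0.54, Rpl11 read 0.35 and 0.33, and the 4 probes of Rpl29 lay between 0.12 and 0.33. Rps27, Rpl12 and Rps20 had a single probe. That of Rps27 is placed by the array's annotation at chr9:114891515-114891574 (mm9), whereas the gene lies on chromosome 3, and probes of Rps20 and Rps28 share a run of 20 bases with a probe of another transcript. In all, 10 genes had such a run in their brightest probe. Whether copies contributed to these readings was not tested.

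In 4 genes the probes went apart, and the first 30 of the 60 bases of each probe are shown in lower case to tell which part of the transcript was read. Both probes of Rpl22 are annotated to the same RefSeq transcript on chromosome 4 and start 3854 bases apart, at chr4:151704158-151704217 and chr4:151708012-151708071 (mm9, plus strand).
Rpl22 probe 1: aacctcggcggaggagtcgtgaccatcgaa
Rpl22 probe 2: gctgtaaacaacattaaccctgggttgatt
The first read 0.14 and 0.10 on the 2 arrays, and the second, a dim probe, read -1.32 and -1.23. The same gene thus showed no clear difference by one probe and a difference beyond 2-fold by the other, with both probes steady between arrays. For Rpl22l1 the brightest probe, at chr3:28706197-28706256, read -0.71 and -0.92, and a dim probe at chr3:28704541-28704600, annotated to another transcript, read 0.06 and 0.38.
Rpl22l1 probe 1: gaacttcgttatttccagattagtcaagat
Rpl22l1 probe 2: gagaaggcggtgggaagagagtcggcctgg
For Rps24 the brightest probe spans a splice junction at chr14:25311322-25312647 and read 0.04 and -0.26, while dim probes farther along the gene at chr14:25314669-25314728 and chr14:25315989-25316048 read -0.75 and 0.89 as means.
Rps24 probe 1: aacacagactggcaagacatggcctttatg
Rps24 probe 2: caggtatagttcaagctattccgtagatca
Rps24 probe 3: gtcaagagcctgaactgagttgatcaagtc
These 3 probes are annotated to 3 different transcripts. For Rpl5 the brightest probe, again over a junction at chr5:108332860-108333767, read -0.27, and a dim one at chr5:108337918-108337977 read 0.71.
Rpl5 probe 1: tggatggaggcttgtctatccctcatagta
Rpl5 probe 2: ctaaaagccattccacagttgactccatct
Rpl7l1 and Rpl21 were the other genes with a probe more than 0.5 away, at -0.06 against -0.61 and at 0.54 against 0.00.

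**Figure D3:**
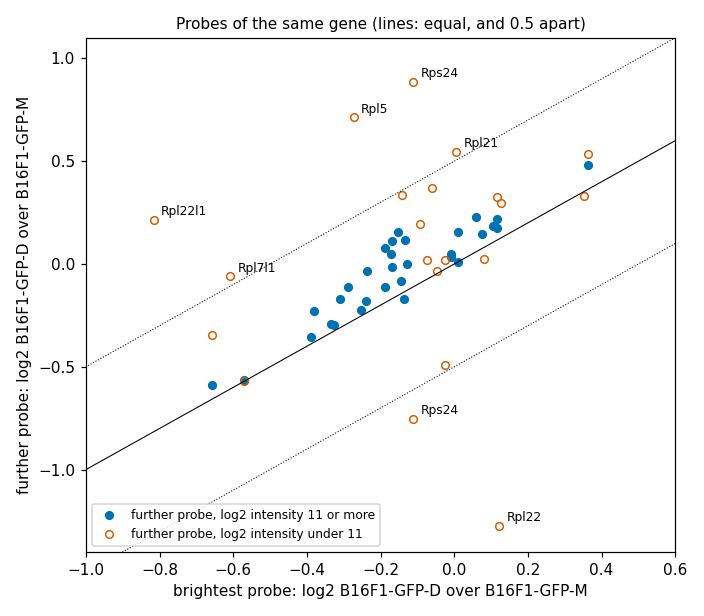
Mean log2 ratio of B16F1-GFP-D relative to B16F1-GFP-M of each further detected probe of a ribosomal protein gene against that of the gene's brightest probe after loess, filled at a log2 intensity of 11 or more and open below. Filled points lie within 0.5 of the line of equal values and mostly just above it. The 7 probes beyond 0.5, named by gene, are all open points.

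Position in the genome was described for chromosomes 3, 13 and 17. They were picked because genes on them were already known to be lower in these data, so that lower values there are no independent finding. By their brightest probes, all 12 detected ribosomal protein genes on them had a negative mean ratio, 11 of them on both arrays. Their median was -0.40, against -0.09 for the 70 genes elsewhere. On array 1 the medians were -0.52 and -0.13, and on array 2 they were -0.35 and -0.07. With median centring they were -0.07 and 0.28, so the gap between the groups stayed similar while the level moved. The other detected genes of these chromosomes had a median of -0.16, against 0.01 elsewhere. Of these 1646 other genes, 934 were lower on both arrays, where 42.7% of all detected genes were.

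On chromosome 17 lie Rps18, Rpl7l1, Rps28, Rps10, Rpl10a, Rpl36 and Rps2, with ratios from -0.66 to -0.17 and a median of -0.42, and the other genes of that chromosome had a median of -0.17. Rps2 alone among them differed in sign between arrays, at -0.48 and 0.13 by its brightest probe. A second bright probe of Rps2, at a log2 intensity of 15.73, read 0.06 and 0.04. On chromosome 3 lie Rpl22l1, Rps27, Rpl34 at -0.25 ± 0.15 and Rps3a at -0.24 ± 0.01. Rps23, the single member on chromosome 13, was at -0.39 ± 0.25. Of the 8 lowest genes of the family, 5 lie on these chromosomes, and of the 8 highest, none. These chromosomes hold 12 of the 82 detected members. Rpl12 on chromosome 2, Rps20 on chromosome 4 and Rplp1 on chromosome 9 were low without lying there. Of the 14 genes on chromosome 7, the most on any chromosome, 6 were lower on both arrays, close to the 42.7% of all detected genes. The highest of the 14 was at 0.02. The number of gene copies in the lines was not measured.

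**Figure D4:**
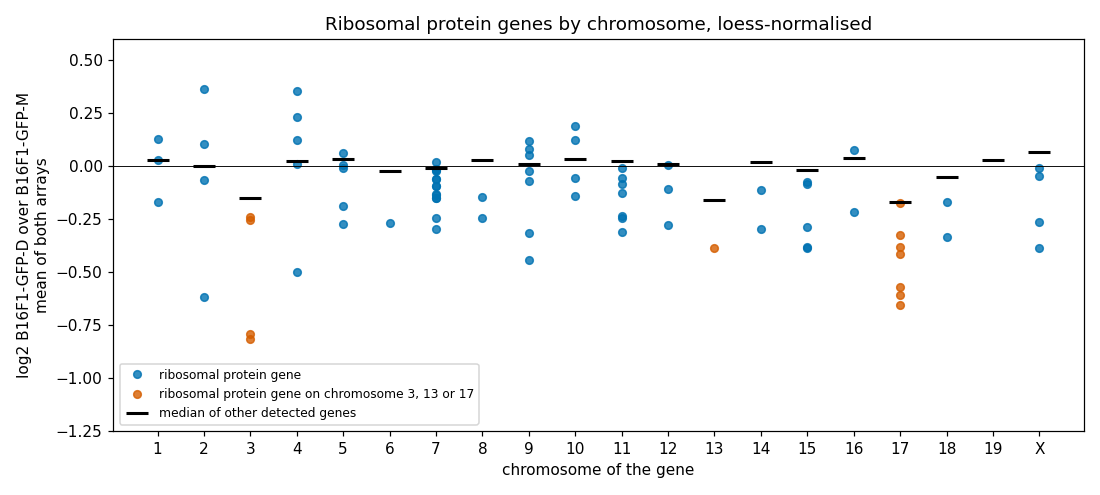
Mean log2 ratio of B16F1-GFP-D relative to B16F1-GFP-M after loess of each detected ribosomal protein gene by the chromosome of the gene, in orange for chromosomes 3, 13 and 17, with a black bar for the median of the other detected genes of that chromosome. All 12 orange points lie below 0 and have a median of -0.40, and the black bars of these chromosomes are the lowest; with median centring the orange median was -0.07 and that of the blue points 0.28.

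The start of the transcript was looked at because TOP motifs tie these genes together. RefSeq starts (assembly GRCm38.p6) were at hand for 64 of the 85 genes. A C at the annotated start that opens a run of at least 5 pyrimidines was found in 13 of them (20.3%), compared with 3.01% of all 27025 genes of the table. The following windows show 10 bases before the annotated start and 20 from it, 5′ to 3′, with the run in capitals, for genes at both ends of the family's range.
Rps27, chr3:90213629-90213658, minus strand: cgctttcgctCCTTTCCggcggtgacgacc
Rps18, chr17:33955646-33955675, minus strand: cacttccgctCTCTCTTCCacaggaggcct
Rps28, chr17:33824543-33824572, minus strand: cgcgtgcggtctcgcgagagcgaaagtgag
Rpl12, chr2:32961702-32961731, plus strand: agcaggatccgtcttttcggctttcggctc
Rps6, chr4:86857348-86857377, minus strand: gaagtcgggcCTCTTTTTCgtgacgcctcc
Rpl11, chr4:136053374-136053403, minus strand: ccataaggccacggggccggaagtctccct
Rpl7a, chr2:26910797-26910826, plus strand: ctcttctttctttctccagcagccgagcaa
Rpl22l1, chr3:28805498-28805527, plus strand: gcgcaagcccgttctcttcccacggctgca
A run of 7 to 9 pyrimidines was carried by Rps27 and Rps18, which were low in B16F1-GFP-D, and by Rps6, which was high. Rps28, Rpl12 and Rpl22l1 at the low end and Rpl11 and Rpl7a at the high end had no such run from a C at the annotated start, so the run did not separate the ends. In Rpl7a a pyrimidine tract spans the annotated start, and in Rpl12 and Rpl22l1 one follows it. An annotated start can be some bases off the true one, so the lack of a run in these genes is uncertain.

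Within 15 bases on either side of the start, on the transcript's strand, 17 of the 64 genes held CTTTC, 13 held CTTCC and 12 held CCTTT, and 27 (42.2%) held at least 1 of these overlapping letters, against 14.1% of all genes. The 26 detected genes with such letters had a median ratio of -0.18, with values from -0.82 to 0.36. The 36 without had -0.06, with values from -0.61 to 0.35, so the ranges overlapped almost wholly. Taken singly, the median was -0.25 for the 11 detected genes with CCTTT, all below 0, and -0.07 for the 51 without. For CTTCC the medians were -0.28 with the letters and -0.07 without, and for CTTTC -0.15 and -0.09. In the whole 300 bases on both strands, CCGGAAG, the letters of ETS factors, occurred in 40.6% of the family against 9.93% of all genes, AAGATGGC, those of YY1, in 9.38% against 3.19%, and GGGCGG, those of SP1, in 62.5% against 38.2%. The median ratio was -0.07 for the 25 detected genes with CCGGAAG and -0.15 for the 37 without. For AAGATGGC it was -0.27 for the 6 genes with it and -0.08 for the 56 without, and for GGGCGG -0.14 and -0.08. A match of letters is not a measured site, and these groups differed by less than the spread among their members.

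Genes of the wider pathway gave a background for the family, and the same dependence on normalisation holds for their medians. Their counts stand beside all detected genes, of which 42.7% were lower and 41.0% higher on both arrays. Fau, which encodes a small subunit protein fused to a ubiquitin-like sequence and falls outside the naming rule, was at -0.26 ± 0.18, or 0.19 with median centring. The 13 elongation factors and other TOP transcripts had a median of -0.02, or 0.27 with median centring. Of these, 6 were lower and 5 higher on both arrays, from Eif4b, a helper of the initiation helicase, at -0.66 ± 0.18 to the histone chaperone Nap1l1 at 0.91 ± 0.08. Of the 33 detected initiation factors, 18 were lower and 13 higher on both arrays, with a median of -0.17, or 0.07 with median centring. Eif1, which guards the choice of the start codon, was lowest at -1.29 ± 0.02 and the only one past 2-fold, and the scaffold Eif4g1 was highest at 0.73 ± 0.32. The initiation factors thus spread more widely than the ribosomal proteins, of which none went below -0.82 or above 0.36.

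The 15 genes of RNA polymerase I, which transcribes ribosomal RNA, had a median of -0.13, or -0.06 with median centring. They ran from Taf1a at -0.72 ± 0.22 to Cd3eap at 0.51 ± 0.07. Among 90 detected ribosome biogenesis genes, 47 were lower and 23 higher on both arrays, with a median of -0.10, or -0.01 with median centring. The lowest was Riok1, a kinase of small subunit maturation, at -1.11 ± 0.09 and past 2-fold, and the highest was Noc4l at 0.48 ± 0.003. Ribosomal proteins of mitochondria, a separate family of 78 detected genes, leaned slightly the other way, with a median of 0.09. On both arrays 41 were higher and 28 lower, where 41.0% and 42.7% of all detected genes were. The mitochondrial family ran from Mrpl24 at -0.95 ± 0.05 to Mrpl18 at 1.12 ± 0.10. With median centring both families had the same median of 0.25.

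Among the regulators of ribosome production, larger differences were seen. In the list of mTOR and Myc genes, 13 of the 20 detected were lower and 3 higher on both arrays, with a median of -0.24. With median centring that median was -0.07. The list pools genes that restrain mTOR or translation with Mtor and Myc, so its median gives no direction for the pathway. Over all detected genes, 42.7% were lower and 41.0% higher on both arrays, and 1.95% were 2-fold lower on both. The 4 past 2-fold on both arrays were Ddit4 at -1.75 ± 0.13, Deptor at -1.41 ± 0.07, Sesn2 at -1.36 ± 0.13 and Eif4ebp1 at -1.13 ± 0.09. The first 3 restrain mTOR and Eif4ebp1 restrains cap-dependent translation. Myc, the factor that drives ribosome production, was at -1.07 ± 0.13, and Mtor itself was the highest of the list at 0.27 ± 0.07. Of 9 genes of p53 and its ribosomal surveillance, 6 were lower and 1 higher on both arrays. Their median was -0.47, or -0.36 with median centring, and they ran from Zmat3 at -1.05 ± 0.08 to Sesn1 at 0.75 ± 0.01. With median centring the genes named past 2-fold here kept their sign in the mean of the arrays, but Eif1 at -0.87, Eif4ebp1 at -0.81 and Riok1 at -0.96 no longer reached 2-fold there, and no gene of these lists was past 2-fold on both arrays.

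**Figure D5:**
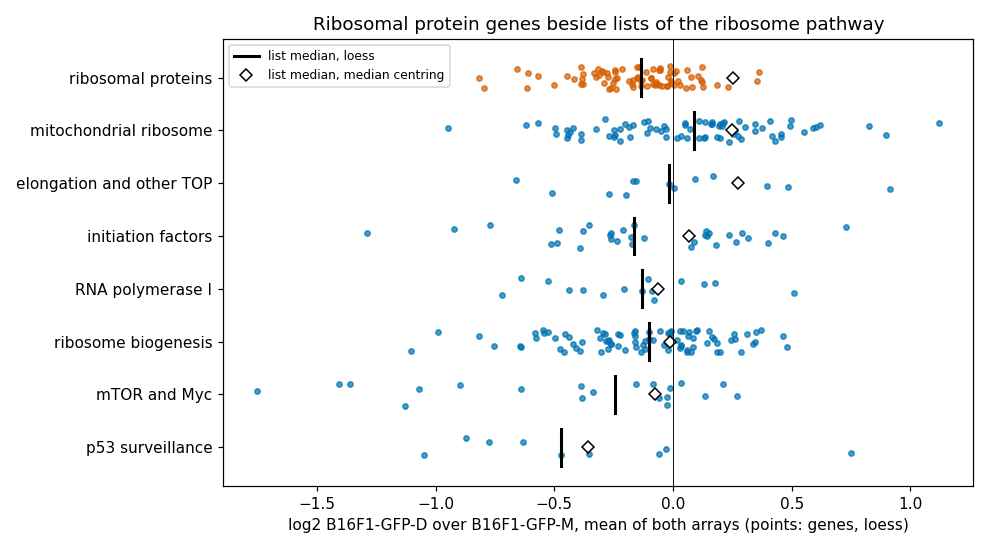
Mean log2 ratio of B16F1-GFP-D relative to B16F1-GFP-M after loess for each detected gene of the ribosomal protein family (orange) and of 7 related lists (blue), with the list median as a black bar and the median after median centring as a diamond. Ribosomal proteins form a narrow band from -0.82 to 0.36, the other lists spread further, and the diamonds of ribosomal proteins, mitochondrial ribosome, elongation and initiation lie to the right of 0.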

How the data were processed

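The RNA of both lines was compared on 2 Agilent 2-colour arrays. The deposited intensities of spots and of their local background, with flags for outliers and for signal well above background, come from Agilent Feature Extraction 10.7.3.1, which the authors ran on the scans (mm9 annotation). The deposited log10 ratios of Cy5 over Cy3, background-subtracted and dye-normalised by the same software, and the series value table of log10 ratios were used as alternatives. In R 4.3.3 with limma 3.58.1, intensities of 43379 non-control spots, without outliers, were corrected by normexp with an offset of 50 and normalised by loess within each array, and ratios were turned to log2 of B16F1-GFP-D relative to B16F1-GFP-M. Spots of a probe were averaged, which left 41164 probes. Symbols and chromosomes come from RefSeq through the probes' accessions, and 122 of the 142 ribosomal protein probes matched.

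No test was made, since there is 1 replicate per line. The named genes are the 8 highest and 8 lowest members, those past 2-fold, the stalk and 5S particle, the paralogs, members whose arrays differed in sign by more than 0.3, the fusion gene Fau, and of each list the ends and at most 4 genes past 2-fold. Further members are named as the lists or the counts call for, and a few genes are not reported here. Members and lists were chosen with earlier results of these data known, and chromosomes and brightness groups after the values were seen. Alternatives were other background corrections, scalings, probe rules, filters, fold rules and each array alone. On simulated arrays, 200 of the brighter probes were given changes beyond 2-fold, with less noise than the real arrays showed. Of these, 93.0% were called 2-fold in the right direction on both arrays, and no unchanged probe among the brighter ones was. The planted changes were larger than any in the family, so the simulation says nothing about smaller differences. Figures were made with Python 3.11.15, pandas 2.3.3 and matplotlib 3.10.9.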

Additional observations from a re-analysis of the deposited data

How the results depend on the processing

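With median centring the medians of the whole family, the small subunit and the large subunit reversed to 0.25, 0.28 and 0.19, that of the initiation factors to 0.0691, and the numbers of genes lower on both arrays, higher on both and 1.5-fold lower on both all fell to 0. The lost counts follow from the dye difference that centring leaves in each array, and the cause of the reversed medians was not tested. The median of a gene's probes left 1 gene 1.5-fold lower and turned the initiation factors to 0.0615; the cause was not tested. Applied to the mean of the arrays, the 1.5-fold rule gave 5 lower genes. The scanner ratio, the value table, an offset of 0, no background subtraction, Aquantile scaling, loess without the members and both other filters kept the medians negative, between -0.20 and -0.13 for the family, and 2 or 3 genes 1.5-fold lower. With either array alone, the genes counted were not exactly those detected over both arrays. The family median then lay between -0.22 and -0.09, the small subunit between -0.22 and -0.07 and the large subunit between -0.22 and -0.10. On 1 array, 21 to 29 genes were higher and 55 to 62 lower, 2 to 8 were 1.5-fold lower, 0 to 1 were 1.5-fold higher, 0 to 1 were 2-fold lower and 0 were 2-fold higher; the 8 came from array 1. Of the 35 named members, 14 changed sign with median centring. No paired analysis was possible because a single replicate of either line exists here. Signal over background limits the dim probes, and 1 replicate per line limits every comparison.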
